A study of Mus musculus with 40 samples.

Results

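The genes described here are 8 enzymes of cholesterol synthesis, Hmgcs1, Idi1, Fdps, Fdft1, Sqle, Lss, Cyp51 and Dhcr7, out of 18193 genes with a probe set on the array. They were chosen by name as genes of the sterol pathway, and 21 of 45037 tested probe sets belong to them. Genes of cholesterol uptake, sterol sensing and efflux were taken from separate lists. Mammary tissue of 40 mice was measured, 1 array per mouse and 5 mice per group. The groups were invasive_tumour (invasive breast tumours of WAP-TNP8 mice), 1M, 2M, 3M, 4M and 5M (breast tissue of WAP-TNP8 mice 1 to 5 months after the SV40 oncogene was switched on), before_activation (breast tissue of WAP-TNP8 mice prior to that) and wild_type (breast tissue of BalbC mice). In WAP-TNP8 mice the SV40 T antigens are placed behind the promoter of the milk protein gene Wap, so that they are made in mammary epithelial cells once a lactation has taken place. The 10 arrays of before_activation and wild_type served as controls. Wild type glands that had been through a lactation form none of the groups, so an active oncogene and a past lactation cannot be told apart in comparisons with the controls.

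Cholesterol is built from acetyl-CoA. The mevalonate steps give isoprenoid units, these are joined to squalene, squalene is oxidised and closed to lanosterol, and lanosterol is trimmed to cholesterol. Most genes of the pathway are known targets of the sterol regulatory element binding proteins, transcription factors that are held in the endoplasmic reticulum by the Insig proteins while sterol is plentiful. In the mammary gland the same cells and the surrounding fat also make large amounts of fatty acids, and milk carries cholesterol in the membrane of its fat globules.

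Promoter sequences of these genes were searched for fixed strings of letters near a start site. RefSeq (GRCm38.p6) windows from 250 bases before to 50 bases after a start matched 5 of the 8 genes in 7 windows, namely Hmgcs1, Idi1, Lss, Cyp51 and Dhcr7. Both strands were searched for the sterol regulatory element letters TCACNCCAC, for the shorter CACNCCAC contained in them, and for CCAAT, the letters bound by NF-Y. TCACNCCAC was found in 1.24% of 32851 promoters and, among these genes, in Hmgcs1, 137 bases before the start. CACNCCAC was found in 6.24% of all promoters and again only in Hmgcs1 at that place among these 5 genes. CCAAT was found in 37.4% of all promoters and in 5 of the 7 windows, at least 1 of each of the 5 genes. Stretches that hold matches are printed below because these genes varied together between arrays, with the matched letters in capitals (ATTGG is CCAAT read on the other strand). The window of Hmgcs1 holds 2 further CCAAT matches, 237 bases before and 11 bases after the start, which lie outside its printed stretch. A match is a description of the letters and not of binding. A missing match covers only these exact letters in these windows. The stretches lie at chr13:119690150-119690335 (plus strand, Hmgcs1), chr13:8885536-8885605 (plus strand, Idi1), chr10:76531518-76531572 (plus strand, Lss), chr5:4104698-4104751 (minus strand, Cyp51) and chr7:143830104-143830194 (plus strand, Dhcr7).
Hmgcs1: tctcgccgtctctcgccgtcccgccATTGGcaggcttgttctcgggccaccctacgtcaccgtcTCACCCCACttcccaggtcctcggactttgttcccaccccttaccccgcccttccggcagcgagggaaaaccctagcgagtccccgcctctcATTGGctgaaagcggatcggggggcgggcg
Idi1: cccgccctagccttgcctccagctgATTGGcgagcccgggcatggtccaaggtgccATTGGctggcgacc
Lss: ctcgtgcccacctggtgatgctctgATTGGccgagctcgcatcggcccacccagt
Cyp51: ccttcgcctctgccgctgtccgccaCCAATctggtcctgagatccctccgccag
Dhcr7: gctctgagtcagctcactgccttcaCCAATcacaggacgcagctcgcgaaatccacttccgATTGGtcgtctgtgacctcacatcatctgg

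All levels are log2 intensities and all differences are on the log2 scale, with the standard error of the limma fit. Where several probe sets read a gene, the one with the brightest average over the arrays stood for it, and a change was called at an adjusted p of at most 0.05 over all 45037 probe sets. Levels of different probe sets were not compared with each other. Tissue markers differed strongly between groups. The mean level over 10 adipocyte genes lay between 6.47 and 10.67 on the invasive_tumour arrays, against 13.41 to 14.50 on the control arrays, and that over 8 genes of luminal epithelium lay between 12.62 and 13.87, against 11.40 to 12.88. The lymphocyte list reached a mean of at least 7 on 12 arrays, 6 of them in 2M and 3M and 3 among the controls. The mean over 6 skeletal muscle genes was 14.40 in gland 5 of 4M and 14.73 and 15.14 in glands 2 and 4 of 5M. It was 13.26 in gland 4 of before_activation and at most 5.61 on the invasive_tumour arrays. For 7 macrophage genes it lay between 11.91 and 12.55 in 1M, against 9.96 to 10.66 in the controls. The spike-in Dap was low on 7 arrays, 4 in 5M and 3 among the controls. In such bulk tissue, fewer cells of a type and less RNA per cell cannot be told apart.

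The comparison of invasive_tumour with the controls asks which sterol genes were altered in tumours. Of the 8 genes, Sqle and Dhcr7 were higher and Fdft1 and Lss were lower. This is 2 of 8 in each direction, beside 18.8% of all probe sets called higher and 14.4% called lower (33.2% in all). The median difference of the 8 genes was 0.56, against -0.002 over all probe sets. Sqle also passed the thresholds of the study, an adjusted p of at most 0.01 with a 5-fold change, which 6.76% of all probe sets passed.

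Sqle, the squalene epoxidase that carries out a rate-limiting oxidation of the pathway, showed the largest difference of the 8. Its levels were 12.48, 12.47, 12.61, 12.09 and 12.58 in invasive_tumour, against a lowest of 9.22, a median of 10.08 and a highest of 10.70 in the controls. Every tumour lay above every control array, a separation that 8.04% of all probe sets showed in this direction. The difference was 2.44 ± 0.22 (5.42-fold, adjusted p = 7.86e-07). Sqle lies on chromosome 15 (59315092 to 59331193, GRCm38.p6) and is read by 1 probe set.

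Lss, which closes oxidised squalene to lanosterol, is the next enzyme after Sqle and went the other way. Its levels were 9.78, 9.17, 10.01, 9.03 and 10.05 in invasive_tumour, against a lowest of 10.30, a median of 10.82 and a highest of 12.40 in the controls. All 5 tumours lay below all 10 controls, as for 8.46% of all probe sets. The difference was -1.45 ± 0.36 (2.74-fold lower, adjusted p = 0.00576), and a dimmer Lss probe set gave -1.48 ± 0.44 (adjusted p = 0.0160). With before_activation alone as controls the adjusted p of Lss was 0.0523.

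Fdft1, the squalene synthase that supplies Sqle with its substrate, was lower as well. Its levels were 11.62, 11.89, 11.49, 11.48 and 11.15 in invasive_tumour, against a lowest of 11.71, a median of 12.52 and a highest of 13.64 in the controls, and only tumour 2 reached into the control range. The difference was -1.07 ± 0.28 (2.11-fold lower, adjusted p = 0.00817), and a further Fdft1 probe set gave -1.25 ± 0.31 (adjusted p = 0.00552). In invasive_tumour the enzymes directly before and after Sqle were therefore lower than in the controls, while Sqle itself was higher. The glands of 4M and 5M averaged 11.83 for Fdft1 and 9.69 for Lss, against 11.53 and 9.61 in invasive_tumour. For Sqle they averaged 10.76, against 12.45. Neither Fdft1 nor Lss passed in the later comparison of invasive_tumour with these glands, whereas Sqle did.

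Dhcr7, which reduces the last precursor of one branch to cholesterol, was measured at 9.44, 9.73, 9.64, 10.29 and 9.56 in invasive_tumour, against a lowest of 8.62, a median of 8.95 and a highest of 9.80 in the controls. All tumours lay above the control mean, but tumour 4 alone exceeded every control. The difference was 0.63 ± 0.20 (adjusted p = 0.0268). It no longer passed without tumour 2 (adjusted p = 0.0520) or tumour 4 (0.49, adjusted p = 0.0913), nor with either control group on its own (adjusted p = 0.0927 with wild_type and 0.0599 with before_activation), and passed under 6 of 13 other settings in all.

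The remaining 4 enzymes did not pass in this comparison. Fdps, the farnesyl diphosphate synthase, differed by 0.76 ± 0.40 (adjusted p = 0.187), and Cyp51, the lanosterol demethylase, by 0.48 ± 0.38 (adjusted p = 0.418). Idi1, the isopentenyl diphosphate isomerase, differed by 0.63 ± 0.29 (adjusted p = 0.116), while its second probe set was higher by 1.09 ± 0.24 (adjusted p = 0.00255) with no overlap of the groups. Hmgcs1, the cytosolic HMG-CoA synthase at the entry of the pathway, differed by -0.56 ± 0.29 (adjusted p = 0.183). Its probe sets disagreed. One was lower by -1.29 (adjusted p = 0.0395), one gave 0.05, and a dim one was higher by 1.29 (adjusted p = 0.000122) at a mean of 4.34 in invasive_tumour and 3.05 in the controls.

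**Figure D1:**
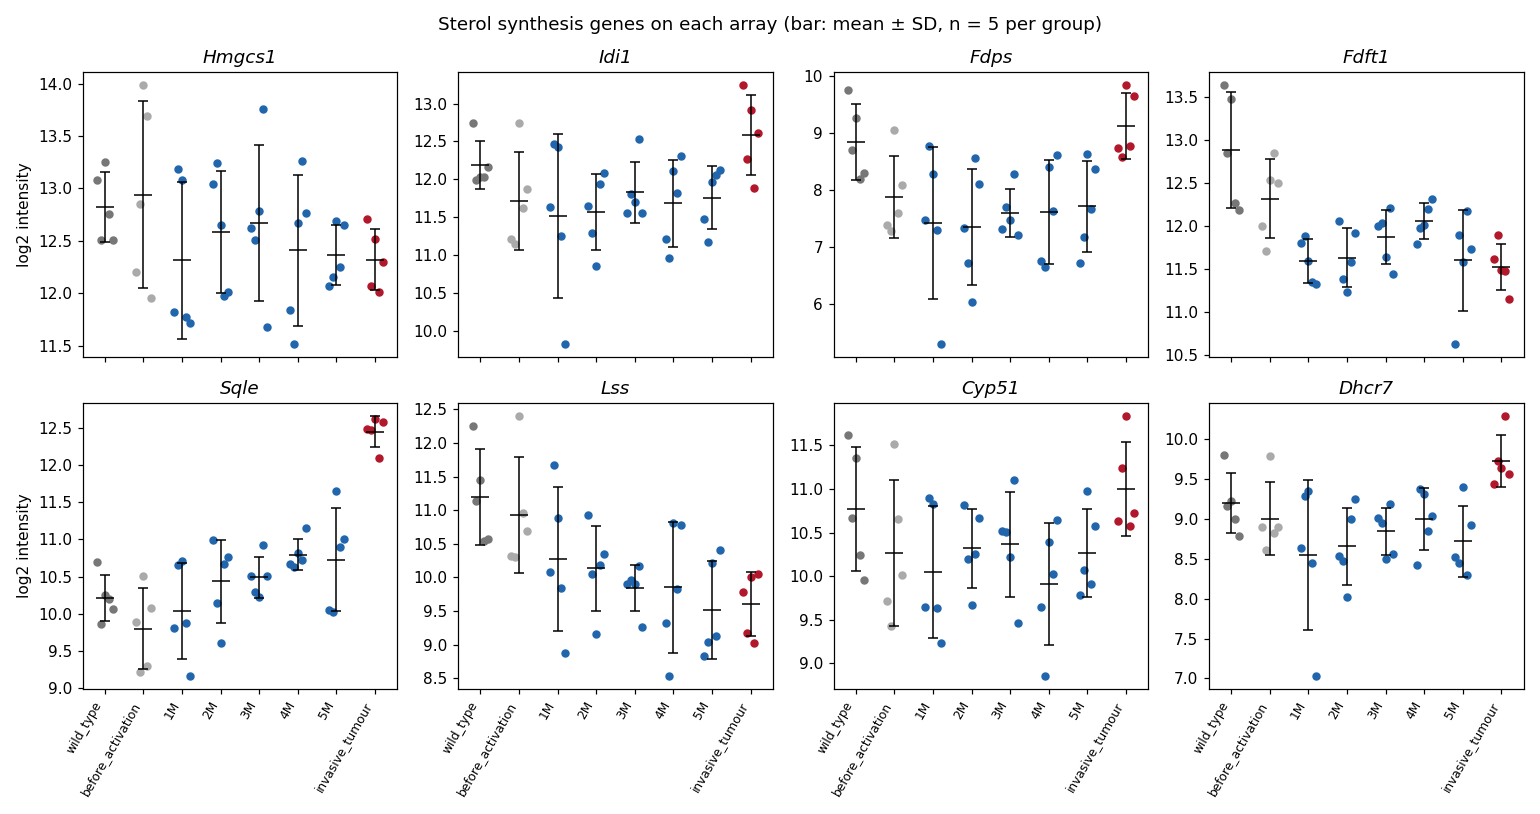
Log2 intensity (vertical axis) of the 8 genes on each of the 40 arrays, by group (horizontal axis), with points for arrays and bars for the mean ± SD of 5 arrays. For Sqle the 5 invasive_tumour arrays, from 12.09 to 12.61, lie above all control arrays, while for Lss they lie at 9.03 to 10.05, below all control arrays.

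The tumours were taken 4 or 5 months after lactation, so a further comparison set invasive_tumour against the 10 glands of 4M and 5M, which share the transgene and the past lactation. Of the 8 genes 5 were higher and none was lower, beside 14.4% and 10.8% of all probe sets (25.2% in all). The median difference was 0.87, against -0.01 over all probe sets. The genes that passed were Sqle, Fdps, Cyp51, Dhcr7 and Idi1, and none of them passed the study thresholds, which 3.71% of all probe sets did.

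Sqle was again the gene with the largest difference, 1.68 ± 0.22 (3.22-fold, adjusted p = 7.19e-05). The levels in 4M and 5M ran from 10.02 through a median of 10.77 to 11.65, below all 5 tumours. Dhcr7 was higher by 0.87 ± 0.21 (adjusted p = 0.00643), with 8.30 to 9.40 and a median of 8.88 in 4M and 5M, below the 9.44 of the lowest tumour. Complete separation upward was seen for 4.35% of all probe sets.

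Fdps was measured at 8.74, 8.58, 9.85, 8.78 and 9.66 in invasive_tumour, against a lowest of 6.64, a median of 7.65 and a highest of 8.64 in 4M and 5M. Only tumour 2 lay within the range of the glands. The difference was 1.46 ± 0.40 (2.75-fold, adjusted p = 0.0138).

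Idi1 was measured at 13.25, 12.27, 12.91, 11.89 and 12.61 in invasive_tumour, against 10.96, 11.90 and 12.31 as lowest, median and highest in 4M and 5M, so that 3 tumours exceeded every gland. The difference was 0.86 ± 0.26 (adjusted p = 0.0255), and the second Idi1 probe set gave 0.89 ± 0.20 (adjusted p = 0.00383). It was lost without tumour 1 (adjusted p = 0.0847) or tumour 3 (adjusted p = 0.0636).

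Cyp51 was measured at 10.63, 11.24, 11.83, 10.57 and 10.72 in invasive_tumour, against a lowest of 8.86, a median of 10.05 and a highest of 10.98 in 4M and 5M. Tumours 2 and 3 exceeded every gland. The difference was 0.91 ± 0.31 (adjusted p = 0.0439), and a second Cyp51 probe set gave 1.08 ± 0.21 (adjusted p = 0.00134). The call on the brighter probe set was lost when any of 10 single arrays was left out (4M 1, 3 or 4, 5M 1, 2 or 4, tumour 1, 2, 3 or 5), with adjusted p up to 0.127.

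Fdft1 (-0.30 ± 0.23, adjusted p = 0.434), Lss (-0.08 ± 0.39, adjusted p = 0.890) and Hmgcs1 (-0.07 ± 0.24, adjusted p = 0.858) did not pass. Fdft1 was called lower without gland 1 of 5M (-0.44, adjusted p = 0.0294) and without the arrays rich in lymphocyte genes (-0.44, adjusted p = 0.0414), and Idi1 and Cyp51 were lost without those arrays (adjusted p = 0.0520 and 0.0631). The 95% interval of the Lss difference ran from -0.92 to 0.76. The tumours of this comparison are those set against the controls above.

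**Figure D2:**
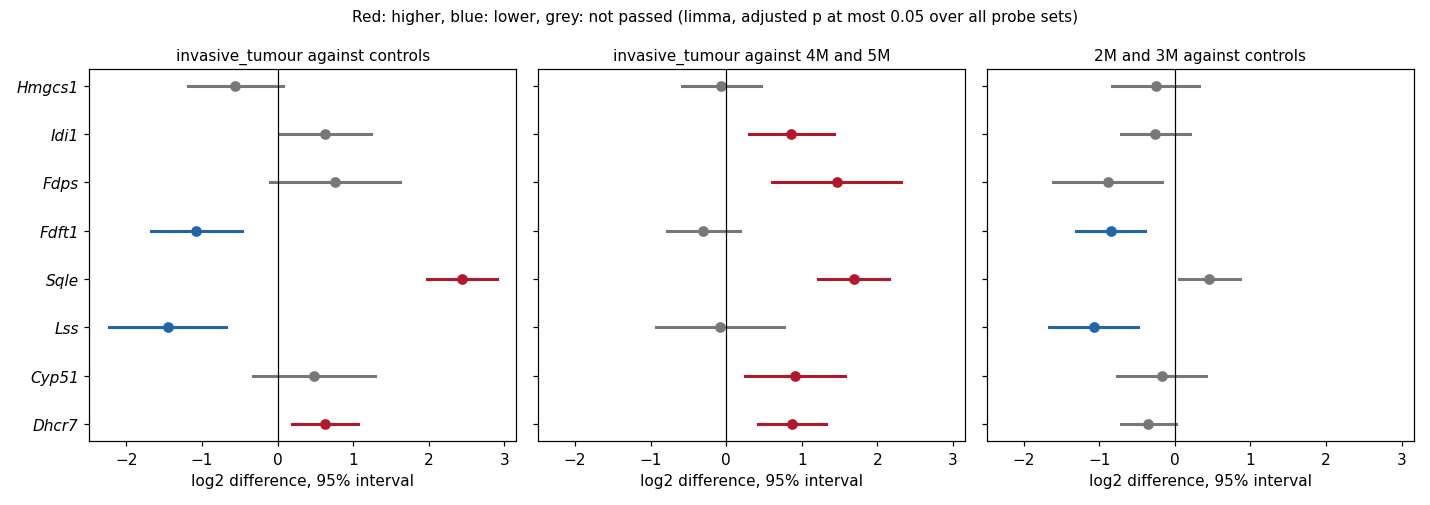
Log2 differences (horizontal axis) of the 8 genes with their 95% intervals in 3 comparisons, red for higher, blue for lower and grey for not passed. Sqle is the farthest to the right in both tumour panels (2.44 and 1.68), and Fdft1 and Lss are the genes called lower against the controls, in invasive_tumour and in 2M and 3M.

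The comparison of 2M and 3M with the controls covers the times taken as early by the study. Here 2 of the 8 genes were lower and none was higher, beside 6.53% of all probe sets called lower and 5.36% called higher (11.9% in all). The median difference was -0.31, against 0.005 over all probe sets.

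Lss ran from 9.16 through a median of 10.01 to 10.92 in 2M and 3M, against 10.30, 10.82 and 12.40 in the controls. The groups overlapped, but all 10 early glands lay below the control mean. The difference was -1.08 ± 0.28 (2.11-fold lower, adjusted p = 0.0158), and the dimmer Lss probe set gave -1.18 ± 0.35 (adjusted p = 0.0324).

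Fdft1 ran from 11.24 through a median of 11.78 to 12.21 in 2M and 3M, against 11.71, 12.52 and 13.64 in the controls, and again all 10 early glands lay below the control mean. The difference was -0.85 ± 0.22 (adjusted p = 0.0133), and its further probe set gave -0.77 ± 0.26 (adjusted p = 0.0583). Both calls were lost with before_activation alone as controls (adjusted p = 0.101 for Lss and 0.0978 for Fdft1) and with fewer arrays, those not rich in lymphocyte genes, where Lss still differed by -0.99 (adjusted p = 0.236) and Fdft1 by -0.73 (adjusted p = 0.229). The 3' to 5' difference of the Gapdh control probe sets, a sign of RNA quality, averaged 3.03 in 2M and 3M and 2.49 in the controls. With it as a covariate Lss gave -0.72 (adjusted p = 0.511) and Fdft1 -0.51 (adjusted p = 0.562).

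Of the genes that did not pass, Sqle differed by 0.45 ± 0.19 (adjusted p = 0.154) and was the only positive one of the 8, while Fdps differed by -0.89 ± 0.34 (adjusted p = 0.110). Against wild_type alone Fdps passed at -1.37 (adjusted p = 0.0289). Hmgcs1, Idi1, Cyp51 and Dhcr7 lay between -0.35 and -0.18.

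Month by month, few genes passed with 5 arrays per time. In 1M, 2M, 3M and 4M none of the 8 genes passed against the controls, beside 3.85%, 3.96%, 6.52% and 5.05% of all probe sets. All 5 Lss levels of 3M (highest 10.17) nevertheless lay below all controls (lowest 10.30), as for 0.828% of all probe sets. Lss passed in 3M under 4 of 13 other settings. In 5M, Lss alone was lower (-1.54 ± 0.40, adjusted p = 0.0204), beside 5.5% of all probe sets called lower and 11.6% in all. Its levels in 5M were 8.83, 9.04, 10.21, 9.12 and 10.40, against 10.30 to 12.40 in the controls, so that 1 gland reached the lowest controls. The call was lost without gland 1, 2 or 4 of 5M (adjusted p from 0.0563 to 0.0647).

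Of successive times only 2M and 1M were compared directly, and none of the 8 genes passed. The largest of the 2M differences from 1M was 0.39 for Sqle (adjusted p = 0.707), beside 0.258% of all probe sets called. None passed for the slope from 2M to 5M either. The slopes ran from -0.18 per month for Lss (adjusted p = 0.681) to 0.12 for Sqle (adjusted p = 0.705), beside 0.0666% called. The Lss differences from the controls in 1M to 5M were -0.79, -0.93, -1.22, -1.21 and -1.54, and those of Sqle were 0.03, 0.43, 0.48, 0.79 (adjusted p = 0.0517 in 4M) and 0.72. These differences share their control arrays.

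The control groups were also compared with each other. No probe set was called between before_activation and wild_type, a share of 0%, although 17.6% of all probe sets did not overlap between these groups, mostly (16.9%) with before_activation lower. This share includes probe sets near the floor that separate by very little. A dim Fdft1 probe set ran from 1.547 to 1.575 in before_activation and from 1.579 to 1.618 in wild_type. The median difference over all probe sets was -0.055, and 52.2% of them had a mean under 5. Fdps differed by -0.96 ± 0.42 (adjusted p = 0.140), with 7.38, 7.28, 9.04, 7.59 and 8.09 in before_activation, against 9.76, 8.69, 9.26, 8.20 and 8.29 in wild_type. Only replicate 3 of before_activation stood among the wild_type glands. The other 7 genes lay between -0.57 (Fdft1) and 0.12 (Hmgcs1).

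In the order of group means, Sqle was highest in invasive_tumour (12.45 ± 0.21, SD, n = 5), followed by 4M (10.80 ± 0.21), 5M, 3M, 2M, wild_type, 1M and before_activation (9.80 ± 0.54). Only the step below invasive_tumour exceeded the larger SD of the neighbouring groups. Dhcr7 was highest in invasive_tumour (9.73 ± 0.33), a step above wild_type (9.20 ± 0.38) that also exceeded both SDs, and lowest in 1M (8.55 ± 0.94). Fdps was highest in invasive_tumour (9.12 ± 0.58) and wild_type (8.84 ± 0.66), a pair within its spread, and all other groups lay between 7.35 and 7.88, with the step between wild_type and before_activation beyond both SDs.

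Lss fell into the order wild_type (11.19 ± 0.71), before_activation, 1M, 2M, 4M, 3M, invasive_tumour and 5M (9.52 ± 0.73), and Fdft1 into wild_type (12.88 ± 0.67), before_activation, 4M, 3M, 2M, 5M, 1M and invasive_tumour (11.53 ± 0.27). No neighbours in these orders differed by more than the larger SD. The same was true of Idi1 (12.58 ± 0.53 in invasive_tumour down to 11.52 ± 1.09 in 1M), of Cyp51 (highest in invasive_tumour and lowest, at 9.91 ± 0.70, in 4M) and of Hmgcs1 (12.94 ± 0.89 in before_activation down to 12.32 ± 0.75 in 1M).

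Within groups the 8 genes varied together. The 28 pairs had a median Pearson correlation of 0.57 over the 40 arrays (-0.16 to 0.89), and of 0.68 (0.34 to 0.88) after each group mean was taken off. The pair with the highest value after this step was Lss and Cyp51 (0.88), and the lowest was Hmgcs1 and Dhcr7 (0.34). With the mean of the other 7 genes Sqle correlated at 0.41 over all arrays and 0.79 within groups, and Lss at 0.60 and 0.92. Fdft1 correlated at 0.43 and 0.55, the lowest value within groups of the 8. Points of a group share their time and their tissue makeup, and no test was made on these values.

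Single arrays stood out for several genes at once. Gland 5 of 1M was the lowest of all 40 arrays for Fdps (5.29), Idi1 (9.82), Sqle (9.17) and Dhcr7 (7.03). Gland 3 of before_activation had the highest level of its group for 7 of the 8 genes, all but Fdft1, with 12.40 for Lss and 13.99 for Hmgcs1.

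**Figure D3:**
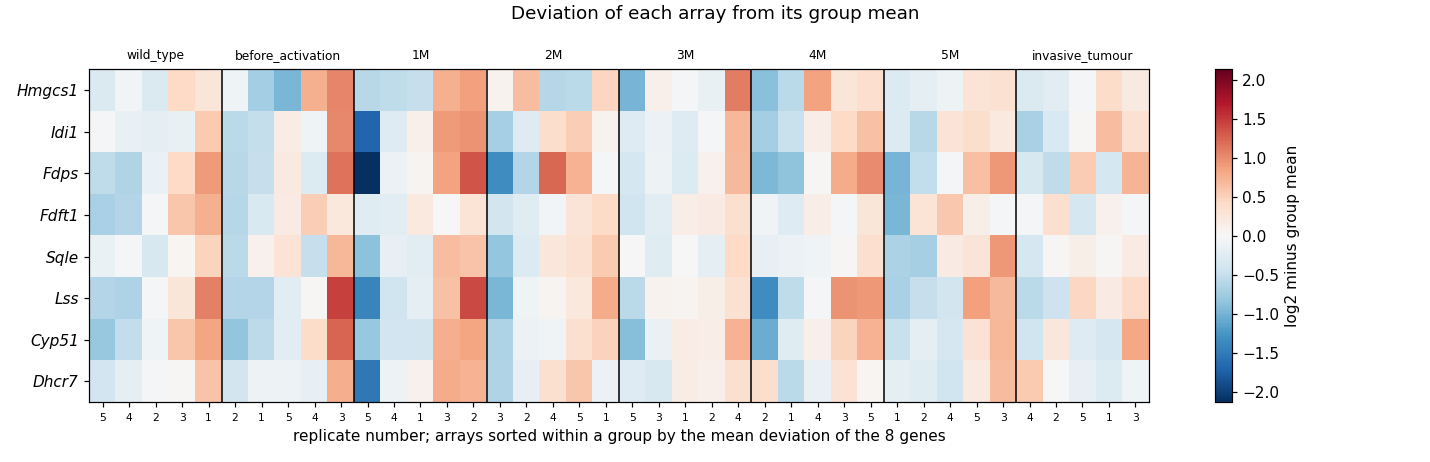
Deviation of each array from its group mean (colour, log2) for the 8 genes (rows), with the arrays of each group sorted by their mean deviation. Columns are mostly of 1 colour, as in gland 5 of 1M (blue) and gland 3 of before_activation (red).

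Outside the 8 genes, 11349 genes were ranked by their correlation with the mean of the 8 over the 40 arrays. The 6 most alike were Mvd (0.79), Tmem79 (0.78), Msmo1 (0.78), Hsd17b7 (0.76), Tbc1d31 (0.74) and Tubg1 (0.72). Mvd, the mevalonate diphosphate decarboxylase, and Msmo1 and Hsd17b7, which trim the sterol ring, are enzymes of the same pathway. Within groups the values were 0.84 for Mvd, 0.84 for Tmem79, 0.77 for Msmo1, 0.76 for Hsd17b7, 0.72 for Tbc1d31 and 0.62 for Tubg1. The mean of the 8 genes was also set against the means of 15 lists within groups. The highest values were those of later sterol synthesis (0.89), the mevalonate pathway (0.89), fatty acid synthesis (0.76) and sterol sensing (0.64). Adipocytes gave 0.38 and milk proteins 0.00, and the lowest values were those of lymphocytes (-0.40), cell division (-0.36) and efflux and storage (-0.31). Over the 20 arrays of 2M to 5M, with group means left in, adipocytes gave 0.64 and fibroblasts and endothelium 0.47. There cell division gave 0.08, milk proteins -0.11, efflux and storage -0.30 and lymphocytes -0.46.

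Further genes of sterol synthesis were measured in the same comparisons. Against the controls, where 18.8% of all probe sets were called higher and 14.4% lower, none of 4 further mevalonate genes was higher in invasive_tumour and 1 was lower, Pmvk (-1.37 ± 0.30, adjusted p = 0.00220), a kinase of the mevalonate steps. Their median was -0.37. Mvd differed by -0.43 ± 0.53 (adjusted p = 0.683). Of 7 later sterol genes 1 was higher and 3 were lower, with a median of -0.36. Lbr, a nuclear membrane protein with sterol reductase activity, was higher by 1.71 ± 0.29 (adjusted p = 0.000333), while Tm7sf2, which carries out the same reduction, was lower by -3.50 ± 0.48 (adjusted p = 4.39e-05). The demethylating dehydrogenase Nsdhl was lower by -1.65 ± 0.34 (adjusted p = 0.00155) and the desaturase Sc5d by -1.15 ± 0.30 (adjusted p = 0.00831). Against 4M and 5M none of the 4 mevalonate genes passed, and Lbr (0.87 ± 0.21, adjusted p = 0.00755) and Tm7sf2 (-1.89 ± 0.54, adjusted p = 0.0190) were those of the 7 that did. The shares of all probe sets in that comparison were 14.4% higher and 10.8% lower.

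Of 8 measured genes of sterol sensing 1 was higher and 3 were lower in invasive_tumour than in the controls, beside 18.8% and 14.4% of all probe sets, with a median of 0.02. Srebf2, the sterol regulatory element binding protein gene most closely tied to cholesterol synthesis, averaged 8.93 in invasive_tumour and 8.19 in the controls (0.75 ± 0.17, adjusted p = 0.00308). Insig1, a retention protein of the pathway and itself a known target of it, averaged 9.83 in invasive_tumour and 12.26 in the controls (-2.42 ± 0.34, adjusted p = 5.68e-05), with no overlap of the groups. Insig2 (-1.02 ± 0.18, adjusted p = 0.000343) and Mylip, a ligase that degrades lipoprotein receptors (11.10 in invasive_tumour and 12.10 in the controls, adjusted p = 0.000345), were also lower. Against 4M and 5M the same 4 genes passed in the same directions, with 1.14 ± 0.16 for Srebf2 (adjusted p = 0.000125) and -2.22 ± 0.32 for Insig1 (adjusted p = 0.000133). In that comparison 14.4% of all probe sets were called higher and 10.8% lower. In 2M and 3M none of the 8 passed, beside 5.36% of all probe sets called higher and 6.53% called lower.

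Uptake and trafficking genes were measured for 7 members, and 2 were higher and 4 lower in invasive_tumour than in the controls (median -0.95), beside 18.8% and 14.4% of all probe sets. Stard4, a cytosolic sterol carrier, was higher by 1.24 ± 0.19 (adjusted p = 0.000125). The lipoprotein receptors Vldlr (-1.62 ± 0.31, adjusted p = 0.000793) and Lrp1 (-1.24 ± 0.20, adjusted p = 0.000203) and the lysosomal cholesterol carrier Npc2 (-0.95 ± 0.11, adjusted p = 7.49e-06) were lower. Lipa, the lysosomal lipase that frees cholesterol from its esters, was higher in 1M (2.26, adjusted p = 8.55e-06), in 2M and 3M (0.98 ± 0.20, adjusted p = 0.00263) and in 5M (1.11, adjusted p = 0.00122) than in the controls, and lower in invasive_tumour than in 4M and 5M (-1.96 ± 0.32, adjusted p = 0.000401). In 4M, 1 of the 7 genes was called higher than in the controls and 1 lower (not named here), with differences from -0.54 to 1.40. Of all probe sets 3.5% were called higher and 1.55% lower in 4M. In 2M and 3M, Scarb1 (-0.56 ± 0.14, adjusted p = 0.0128) and Vldlr (-0.69 ± 0.19, adjusted p = 0.0216) were lower. Lrp1 and Npc2 were also lower in invasive_tumour than in 4M and 5M.

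Of 6 efflux and storage genes 1 was higher and 3 were lower in invasive_tumour than in the controls (median -0.54), beside the same 18.8% and 14.4%. Nr1h3, the sterol-activated receptor LXR alpha, was lower (adjusted p = 6.85e-06), with a mean of 4.46 in invasive_tumour, against 9.53 in the controls. The tumour arrays ran from 2.96 through a median of 3.35 to 6.54, for the most part near the floor of the array, so the size of this difference is a lower bound. The cholesterol exporter Abca1 (-0.99 ± 0.17, adjusted p = 0.000286) and the lipid carrier Apoe (-0.97 ± 0.21, adjusted p = 0.00211) were lower, and the exporter Abcg1 was higher (1.35 ± 0.41, adjusted p = 0.0202). Nr1h3 (-1.04 ± 0.21, adjusted p = 0.00323) and Abca1 (-0.48 ± 0.13, adjusted p = 0.0212) were lower in 2M and 3M already.

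All 9 measured genes of fatty acid synthesis were lower in invasive_tumour than in the controls, with a median of -3.53, beside 14.4% of all probe sets called lower. Me1, which supplies reducing power (-4.44 ± 0.30, adjusted p = 7.11e-08), Acaca, the acetyl-CoA carboxylase (-4.03 ± 0.28, adjusted p = 8.92e-08), and Fasn, the fatty acid synthase (-3.53 ± 0.33, adjusted p = 1.42e-06), were among them. In 2M and 3M 3 of the 9 were lower, beside 6.53% of all probe sets, Acaca (-1.20 ± 0.28, adjusted p = 0.00695), Me1 (-0.91 ± 0.25, adjusted p = 0.0195) and Acss2 (-1.32 ± 0.39, adjusted p = 0.0304). All 10 adipocyte genes were lower in invasive_tumour as well, with a median of -6.13, and 7 of 10 were lower in 2M and 3M (median -0.79). The shares of all probe sets called lower were again 14.4% and 6.53%. All 7 genes of basal cells were lower in invasive_tumour (median -3.18), 5 of 8 of luminal epithelium were higher and 1 lower (median 1.47), and all 11 of cell division were higher (median 5.91), beside 18.8% of all probe sets called higher. Genes of these lists such as Lipe (4.29 in invasive_tumour and 11.62 in the controls) were near the floor in one of the groups, where a difference gives a lower bound. The part of these shifts in tissue makeup in the differences of sterol genes was not tested.

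**Figure D4:**
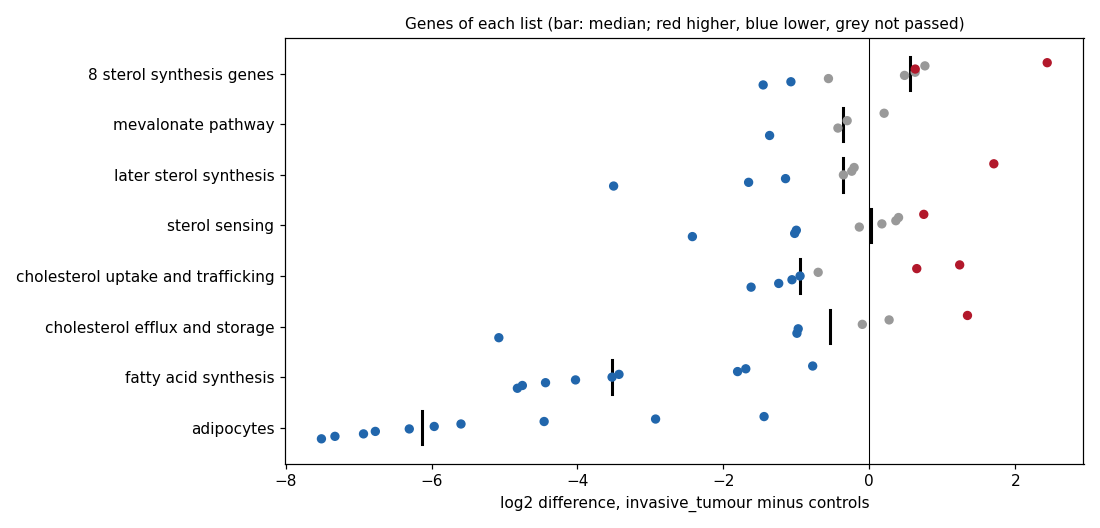
Log2 difference of invasive_tumour from the controls (horizontal axis) for each gene (point) of 8 lists (rows), red for higher, blue for lower, grey for not passed, with a bar at the list median. The 8 sterol genes span -1.45 to 2.44 around a median of 0.56, whereas the medians of fatty acid synthesis and of adipocytes lie at -3.53 and -6.13.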

How the data were processed

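RNA of each gland or tumour (50 ng) was amplified in 2 rounds and hybridised to a whole-genome mouse array, and the authors used GCRMA in GeneSpring to correct background and normalise. These intensity values were deposited in 1 table on a linear scale, from 2.03 to 144656. A further deposited file gives log2 values of the same summaries after the median of the 40 arrays was taken off for each probe set. The columns of the linear table name groups but not mice, so the level on each array is the centred value plus the log2 of the median intensity of the probe set. With the values of each probe set sorted within a group, both tables were equal to within 1.04e-06. Columns of the linear table were not matched to single mice. Array medians were 18.96 to 24.35. The highest correlation between 2 arrays was 0.9974. Of 45101 probe sets 64 controls were left out. Of the 45037 tested, 34945 had 1 symbol, 932 several and 9160 none, and 52.2% had a mean under 5, near the floor. The number of arrays limits the precision.

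Each comparison was its own fit in limma 3.58.1 (R 4.3.3, with the package data.table at 1.17.8) with 2 groups, two-sided, with Benjamini-Hochberg adjustment over all probe sets. There were 11 comparisons. The fit was tested on simulated data. Named were all 8 sterol genes, every other probe set of theirs that the text uses, up to 4 genes per sterol or fatty acid list with the smallest p, Srebf2 and Insig1 always, and the 6 genes most like the mean of the 8. Of 126 genes in 15 lists 115 were measured, and 11 symbols were not analysed here. The genes and lists were chosen with earlier results of these data known.

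Alternatives were another scaling, an offset of 16, a filter on dim probe sets, 1 fit over all groups, the methods' t-test, the mean over probe sets, each control group alone, arrays with high Dap, Gapdh 3' to 5' as a covariate, a replicate block and leaving out each array. Arrays with a lymphocyte list mean under 7 were used alone in an alternative chosen after seeing the data.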

Additional observations from a re-analysis of the deposited data

Results flagged for a closer look

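In 4 of 64 groups of 5 arrays (8 genes in 8 groups), 1 array stood far from the rest by Dixon's test, where chance alone flags about 1 in 20 groups. Idi1 was at 12.75 in wild_type replicate 1, with the others at 11.99 to 12.17, and at 12.53 in 3M replicate 4, with the others at 11.55 to 11.81. Sqle was at 12.09 in invasive_tumour replicate 4, with the others at 12.47 to 12.61. Dhcr7 was at 9.79 in before_activation replicate 3, with the others at 8.62 to 8.91.

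The change from the controls in invasive_tumour differed from that in 4M and 5M for 5 genes, which the direct limma fit of invasive_tumour against 4M and 5M tests. The difference was 1.68 for Sqle (adjusted p = 7.19e-05), 1.46 for Fdps (adjusted p = 0.0138), 0.91 for Cyp51 (adjusted p = 0.0439), 0.87 for Dhcr7 (adjusted p = 0.00643) and 0.86 for Idi1 (adjusted p = 0.0255). All 5 tumours lay above the mean of 4M and 5M for each of the 5 genes.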

How the results depend on the processing

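No change of direction was found for a called gene under any alternative. Of 1048 gene values under other settings 1003 kept their status, called or not called, while 23 lost a call and 22 gained one. Of 1320 values with 1 array left out 1293 kept their status, 17 lost a call and 10 gained one. Most of these values belonged to genes not called in the main fit, which had no call to lose. The shares are therefore not rates at which calls were kept. A value that passed under neither setting changed sign in 34 of the 1048 and 41 of the 1320. Sqle passed under every alternative in both tumour comparisons. The number of the 8 genes called moved as follows. For 2M and 3M (2 genes) it was 0 with before_activation alone as controls, with the Gapdh covariate and without arrays rich in lymphocyte genes, and 2 without any 1 array. For invasive_tumour against the controls (4) it was 5 with the mean over probe sets, where Idi1 passed as well (0.86, adjusted p = 0.0120), and 2 with before_activation alone. It was 3, without Dhcr7, with arrays centred on their median, in 1 fit over all groups, with wild_type alone, with high Dap, with the Gapdh covariate and without arrays rich in lymphocyte genes, and 3 to 4 without any 1 array. For 1M (0) it was 1 without dim probe sets, in 1 fit over all groups, in the methods' t-test and with wild_type alone. For 2M (0) it was 1 without dim probe sets and in 1 fit over all groups. For 3M (0) it was 1 under the settings named for 1M and with the mean over probe sets. For 4M (0) it was 1, Sqle, without dim probe sets, in 1 fit, in the t-test and with the mean over probe sets. Without any 1 array it was 0 to 1 in 1M, 2M, 3M and 4M. For 5M (1) it was 2 without dim probe sets, in 1 fit, with the mean over probe sets and with the Gapdh covariate, 0 in the t-test, with before_activation alone and without arrays rich in lymphocyte genes, and 0 to 2 without any 1 array. For invasive_tumour against 4M and 5M (5) it was 3 in the t-test and with high Dap, 4 without arrays rich in lymphocyte genes (Idi1 and Cyp51 lost, Fdft1 gained as lower), and 3 to 5 without any 1 array. Fewer probe sets tested or fewer arrays are part of these settings by construction; otherwise the cause was not tested.

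Of 140 pairs of arrays with the same replicate number 65 deviated together at r over 0.1 (-0.47 to 0.68, median 0.08), so the numbers were not taken to pair the mice. For 2M and 3M with the controls 16 of 20 pairs were over 0.1 (mean 0.28, against -0.07 for other numbers), for 3M alone 9 of 10 (0.34 against -0.08), and for before_activation with wild_type 3 of 5 (0.25 against -0.06). With a replicate block the counts were 2 for 2M and 3M, 4 and 5 for the tumour comparisons and 1 for 5M, the same as without it, and 0 in the other comparisons. For 2M against 1M, the slope and before_activation against wild_type, 0 genes passed under every setting run. The arrays left after removing those rich in lymphocyte genes could not give 2M alone, and those with high Dap could not give 5M, so these were not run.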
